A study of Mus musculus with 12 samples.

Results

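Iron handling in the liver was followed through 10 genes: the hepcidin genes Hamp and Hamp2, the iron exporter Slc40a1 (ferroportin), the iron carrier Trf (transferrin), its receptors Tfrc and Tfr2, the importer Slc11a2, the ferritin subunits Fth1 and Ftl1, and the heme-degrading enzyme Hmox1. The members were chosen by name and make up 10 of the 41325 genes listed for each library. All 10 were among the 16456 genes with enough reads to be tested. Liver RNA was sequenced from 12 wild-type C57BL/6J mice in 3 groups of 4. Control mice received vehicle and carried no disease label. The NASH vehicle mice were fed CDAHFD, a choline-deficient, amino acid-defined, high-fat diet that gives nonalcoholic steatohepatitis (NASH), and received vehicle. The CDDO-Me mice were on CDAHFD too and received CDDO-Me, which is bardoxolone methyl, a triterpenoid activator of the transcription factor NRF2, at 10 mg/kg by mouth, in a treatment that lasted 8 weeks. Age, sex, the vehicle, the diet of the control mice and the time on the diet before treatment are not stated in the labels.

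Hepcidin is a peptide hormone made by hepatocytes that binds ferroportin and has it degraded, so that less iron leaves cells for the blood. Its transcription answers to BMP ligands and SMAD proteins, which report iron stores, and to STAT3, which reports inflammation. Within cells, iron regulatory proteins bind hairpins called iron-responsive elements in the messenger RNAs of ferritin, ferroportin and transferrin receptor and set their translation or stability. Hmox1 opens the heme ring and releases its iron, and Hmox1, both ferritin genes and Slc40a1 are textbook targets of NRF2. A messenger RNA level therefore need not follow the protein level, and protein and iron were not measured here.

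The hairpins are shown because they place members under control of translation or stability that messenger RNA levels alone do not show. A search of the untranslated regions (UTRs) of GENCODE M21 transcripts (build GRCm38) looked for an unpaired C, a stem of 5 base pairs with G-U pairs allowed, and the loop CAGTGN of 6 bases, on the transcript's strand. Each of the 30 bases is printed 5′ to 3′ with the loop in capitals.
Fth1: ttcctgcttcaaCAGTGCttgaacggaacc
Ftl1: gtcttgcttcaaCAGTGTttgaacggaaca
Slc40a1: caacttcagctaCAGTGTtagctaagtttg
Tfrc site 1: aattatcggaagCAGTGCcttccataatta
Tfrc site 2: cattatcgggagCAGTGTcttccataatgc
Tfrc site 3: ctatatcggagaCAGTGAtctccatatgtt
Tfrc site 4: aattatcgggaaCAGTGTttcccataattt

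The Fth1 window lay at chr19:9982732-9982761 on the plus strand, the Ftl1 window at chr7:45459778-45459807 on the minus strand and the Slc40a1 window at chr1:45925464-45925493 on the minus strand, each in the 5′ UTR. The 4 Tfrc windows lay in the 3′ UTR on the plus strand, at chr16:32631219-32631248, chr16:32631598-32631627, chr16:32631663-32631692 and chr16:32631710-32631739. Such a hairpin was found in the 5′ UTR of 31 of 20916 genes (0.148%) and in the 3′ UTR of 129 of 21707 genes (0.594%). The other 6 members held no match, which says only that this pattern is not in their annotated UTRs.

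Hamp and Hamp2 are neighbours on chromosome 7 and gave different values in the treated livers, so the stretches upstream of their RefSeq starts are shown. RefSeq promoters (build GRCm38.p6, 250 bases before to 50 after a start) matched 6 of the 10 members. Each stretch below is 150 bases on the minus strand, ending 8 bases before the start of Hamp and 5 bases before the start of Hamp2. Capitals mark the BMP response motif GGCGCC, or the 6 bases at its place in Hamp2, and the STAT motif TTCNNNGAA, searched on both strands.
Hamp: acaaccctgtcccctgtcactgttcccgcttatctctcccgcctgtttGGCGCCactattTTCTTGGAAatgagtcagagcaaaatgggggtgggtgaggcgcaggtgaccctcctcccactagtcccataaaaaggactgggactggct
Hamp2: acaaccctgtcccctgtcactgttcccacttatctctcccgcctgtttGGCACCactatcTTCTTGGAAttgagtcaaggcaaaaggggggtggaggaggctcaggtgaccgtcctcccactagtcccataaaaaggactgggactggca

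The Hamp stretch lay at chr7:30944037-30944186 and the Hamp2 stretch at chr7:30924186-30924335. The annotation used for the counts places Hamp2 at chr7:30922372-30924681, with a start that differs from the RefSeq start. The Hamp2 stretch therefore lies inside the counted gene, and the Hamp stretch lies outside the counted Hamp gene. They were identical at 138 of 150 bases (92%). The STAT motif was in both. The BMP response motif was in Hamp and differed in Hamp2 by G52A, with Hamp's base first and positions counted from 1 at the 5′ end of the printed stretch. Of 32851 RefSeq promoters, 11.9% held GGCGCC and 8.3% held TTCNNNGAA. The antioxidant response motif TGACNNNGC, held by 12.4% of promoters, was in none of the windows of the 6 matched members. These were Hamp, Hamp2, Tfrc, Tfr2, Fth1 and Ftl1, so Hmox1 and Slc40a1 were not searched. Sequence outside the windows was not searched either.

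Libraries held 28161057 to 33852338 reads in genes. All values per library below are CPM (read counts relative to library size), scaled between libraries by the trimmed mean of M-values (TMM). Groups were compared with edgeR's quasi-likelihood test, and p-values were adjusted over all 16456 genes by the Benjamini-Hochberg method, with a gene called changed at an adjusted p under 0.05. Library sizes without TMM shifted the median of all genes by 0.62 (log2) between NASH vehicle and control, so each change in that comparison is relative to the scaling. The macrophage list of 12 markers summed to 145 to 247 CPM in control, 1968 to 3762 in NASH vehicle and 1070 to 1972 in CDDO-Me livers. The 10 hepatocyte markers, which are those of the labelled tissue, summed to 94563 to 113899 CPM in control, 41814 to 66392 in NASH vehicle and 41469 to 60339 in CDDO-Me livers. The hepatocyte sums lean on Alb, with means of 59982, 27730 and 30116 CPM in these groups. In bulk tissue, fewer cells of a type and less RNA per cell cannot be told apart. NASH vehicle 1 stood apart from its group, with the lowest macrophage sum (1968) and the highest hepatocyte sum (66392). Control 3 and CDDO-Me 4 stood apart in smooth muscle markers, with sums of 449 CPM against 14.8 to 20.9 in the other control libraries and 166 CPM against 26.0 to 60.3 in the other CDDO-Me libraries. Control 3 also had the highest cholangiocyte sum of its group (265 CPM against 44.9 to 82.6). Hamp was lowest among control libraries in control 3, and leaving out both libraries gave a log2 fold change of -1.92 for Hamp in NASH vehicle against control (adjusted p = 0.00022, edgeR).

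In NASH vehicle livers against control, 2 members rose (Hmox1 and Fth1) and 4 fell (Hamp, Hamp2, Tfr2 and Tfrc), beside a background of 59.7% of all genes called (29.6% higher, 30% lower). The median log2 fold change was -0.19 over the 10 members and -0.01 over all genes tested. In CDDO-Me against NASH vehicle, 5 members rose (Hamp2, Slc40a1, Tfrc, Fth1 and Ftl1) and 1 fell (Hmox1), beside a background of 16.6% (9.39% higher, 7.24% lower). The median log2 fold change was 0.41 over the members and -0.01 over all genes. In CDDO-Me against control, 4 rose (Hmox1, Fth1, Ftl1 and Slc40a1) and 4 fell (Hamp, Tfr2, Trf and Slc11a2), beside a background of 49.8% (26.2% higher, 23.6% lower), with medians of -0.22 and 0.03. The comparisons with NASH vehicle share the NASH vehicle libraries, and those with control share the control libraries, so they are not independent of each other. Groups did not overlap in 6, 7 and 7 members in these comparisons, beside 54.4%, 21.6% and 43.7% of all genes.

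**Figure D1:**
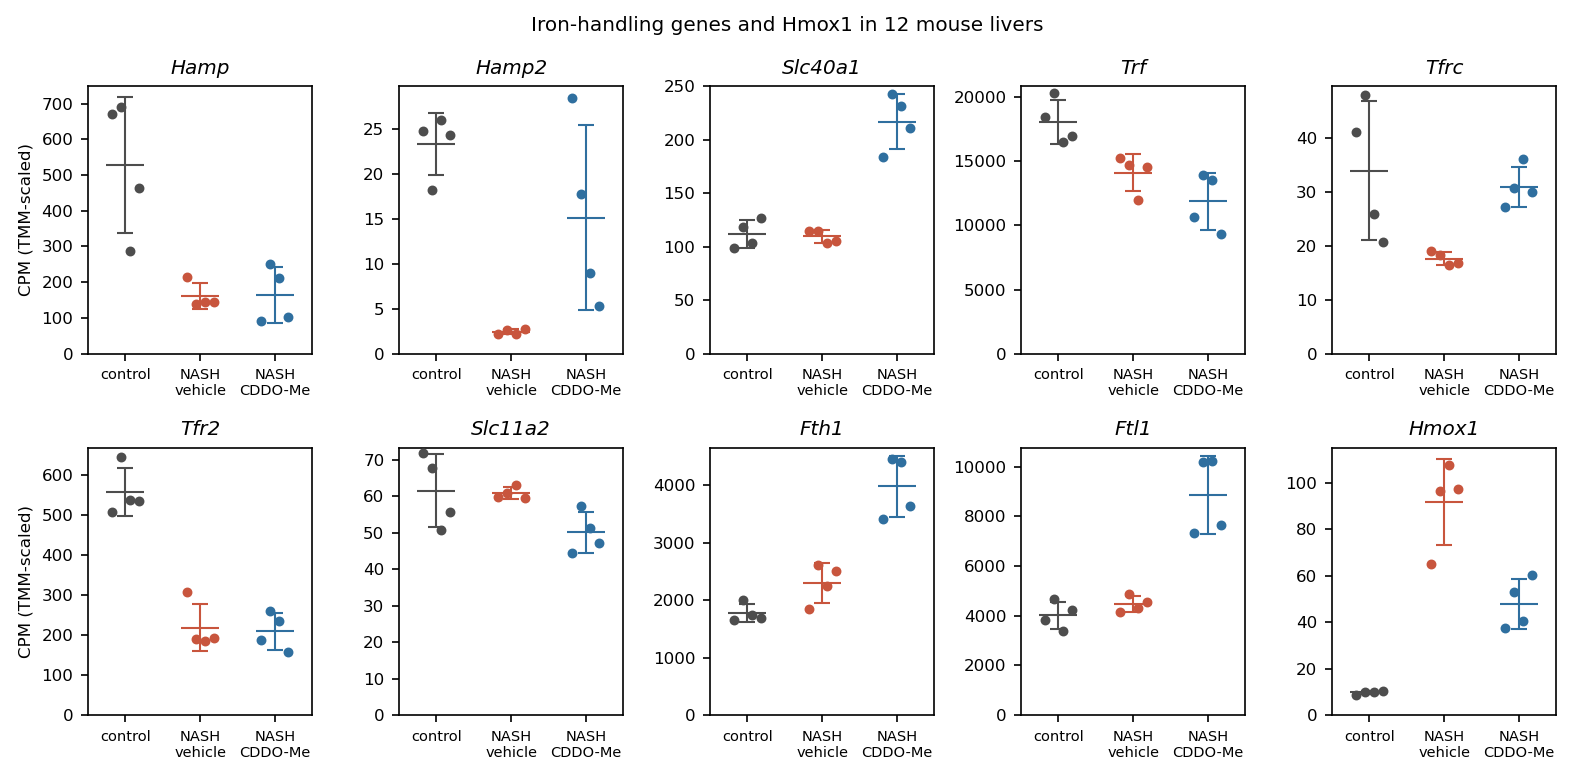
CPM (TMM-scaled, axes from 0) of the 10 genes in each library, with the group mean as a horizontal line and bars of 1 SD (n = 4 mice per group). Hmox1 was 8.83 to 10.6 CPM in control and 64.9 to 108 in NASH vehicle livers, and Slc40a1, Fth1 and Ftl1 were higher in every CDDO-Me library than in any other library.

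**Figure D2:**
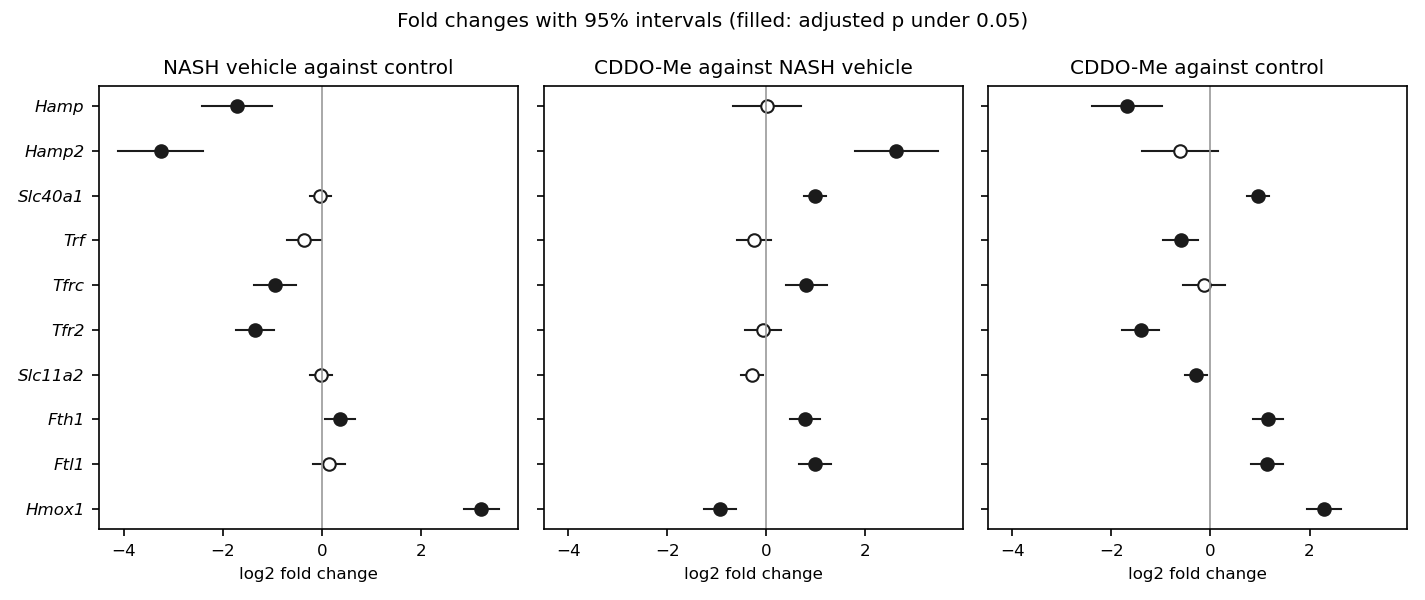
Log2 fold changes of the 10 genes in the 3 comparisons, as points with nominal 95% intervals (1.96 SE either side). Filled points have an adjusted p under 0.05: 6, 6 and 8 of the 10 genes.

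Both hepcidin genes were lower in NASH vehicle livers than in control livers, and only Hamp2 was called higher again with CDDO-Me. Hamp (chr7:30942368-30944032, minus strand), the gene of the active hormone, stood at 670, 689, 286 and 464 CPM in control libraries 1 to 4, and at 215, 139, 145 and 145 CPM in NASH vehicle libraries 1 to 4. In CDDO-Me libraries 1 to 4 it stood at 91.5, 249, 212 and 102 CPM. All control libraries were above all others, and the CDDO-Me libraries spread to both sides of the NASH vehicle libraries. Hamp fell by 1.71 ± 0.36 (log2, SE) in NASH vehicle against control (adjusted p = 0.0015, edgeR), a 3.27-fold difference. CDDO-Me against NASH vehicle gave 0.02 ± 0.35 (adjusted p = 0.98, edgeR), with a nominal 95% interval of -0.67 to 0.71. Against control, CDDO-Me libraries were lower by a log2 fold change of -1.69 ± 0.36 (adjusted p = 0.0022, edgeR).

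Hamp2 (chr7:30922372-30924681, minus strand) is the second mouse hepcidin gene, which arose by duplication. It stood at 24.8, 18.2, 26.0 and 24.4 CPM in control and at 2.21, 2.67, 2.14 and 2.78 CPM in NASH vehicle libraries. The CDDO-Me libraries were at 28.5, 17.8, 8.97 and 5.33 CPM. The CDDO-Me libraries were all above the NASH vehicle libraries, spread widely among themselves, and overlapped the control range. Hamp2 fell by 3.25 ± 0.44 (log2) in NASH vehicle against control (adjusted p = 6.3e-05, edgeR) and rose by 2.63 ± 0.43 in CDDO-Me against NASH vehicle (adjusted p = 0.0019, edgeR). CDDO-Me against control gave -0.62 ± 0.39 (adjusted p = 0.21, edgeR). Without CDDO-Me 1, the log2 fold change against NASH vehicle was 2.12 and that against control was -1.13 with an adjusted p of 0.014 (edgeR), which passes the threshold.

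Per transcript length, Hamp2 was the minor hepcidin messenger RNA in all 12 libraries. Its share of the summed TPM of both genes, a unit the authors scaled by transcript length and library, was 1.84% to 6.05% in control and 0.83% to 1.48% in NASH vehicle livers. In CDDO-Me libraries 1 to 4 the share was 19.99%, 5.28%, 3.25% and 3.96%. The share was above every NASH vehicle value in all 4 CDDO-Me libraries, and the value of CDDO-Me 1 stood far above the other 3. The summed CPM of both genes was 312 to 707 in control, 142 to 217 in NASH vehicle and 107 to 267 in CDDO-Me livers. The genes share near-identical stretches, so some reads could have been split between them: 82.0% of Hamp reads and 85.8% of Hamp2 reads were unique. The unique share differed between groups. In control, NASH vehicle and CDDO-Me livers it was 86.8%, 76.6% and 76.1% for Hamp and 88.2%, 80.7% and 84% for Hamp2. The lowest library held 74 Hamp2 reads. A long noncoding gene on the other strand, Gm44662, overlaps both and held 549 reads over all libraries, against 94057 for Hamp.

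**Figure D3:**
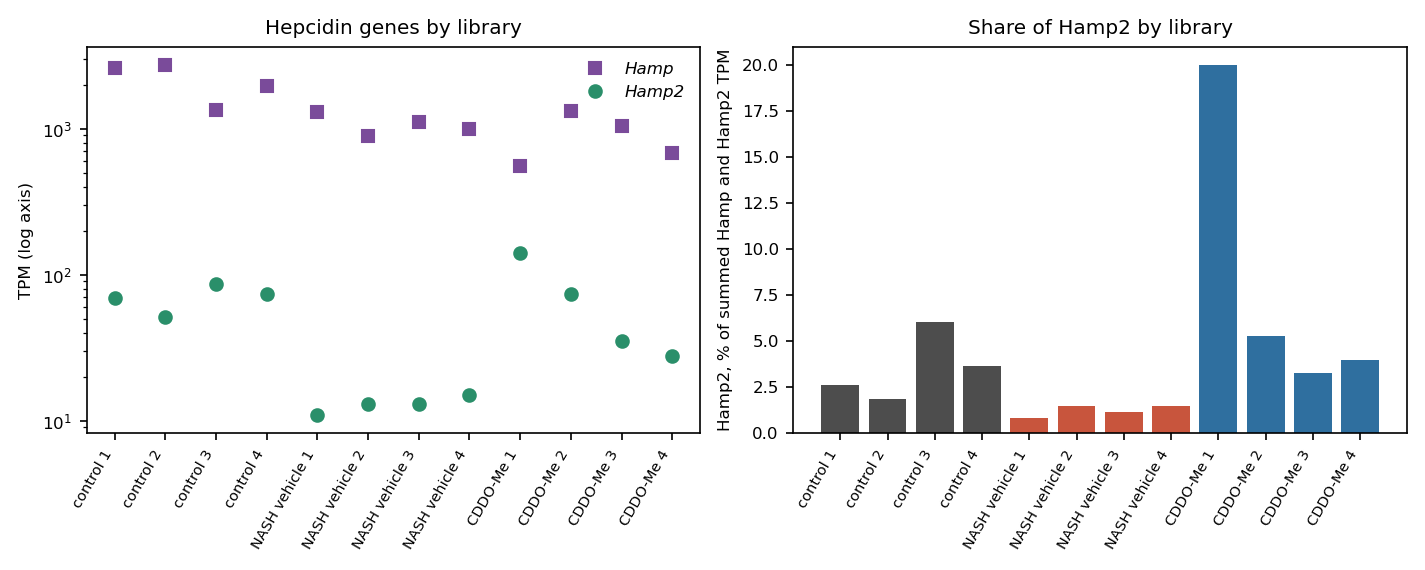
Left, TPM of Hamp (squares) and Hamp2 (circles) in each library on a log axis. Right, Hamp2 as a percentage of the summed TPM of both genes, with bars from 0 coloured by group: it was 0.83% to 1.48% in NASH vehicle and 3.25% to 19.99% in CDDO-Me livers.

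On the TMM scale, ferroportin messenger RNA was at overlapping levels in control and NASH vehicle livers and 1.98-fold higher with CDDO-Me than in NASH vehicle livers. Slc40a1 (chr1:45908068-45926523, minus strand), the only known iron exporter of mammalian cells, stood at 98.3, 118, 103 and 127 CPM in control and at 115, 115, 104 and 105 CPM in NASH vehicle libraries. The CDDO-Me values were 183, 243, 231 and 210 CPM, with no overlap with either group. It rose by 0.99 ± 0.11 (log2) against NASH vehicle (adjusted p = 7.3e-05, edgeR) and by 0.96 ± 0.11 against control (adjusted p = 1.3e-05, edgeR). NASH vehicle against control gave -0.03 ± 0.11 (adjusted p = 0.85, edgeR, interval -0.24 to 0.19). Library totals without TMM gave 0.60, which passed the threshold and was near the median shift of all genes on that scale. On TPM, all NASH vehicle libraries (36.0 to 39.9) were above all control libraries (17.6 to 24.6).

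The sinusoidal endothelium markers rose where Slc40a1 rose against NASH vehicle, but did not follow it against control. Their sum over 8 genes was 237 to 268 CPM in control, 106 to 179 in NASH vehicle and 199 to 302 in CDDO-Me livers, and 6 of 8 rose in CDDO-Me against NASH vehicle with a list median of 1.02 (log2). In NASH vehicle against control 5 of 8 fell (median -0.95), and in CDDO-Me against control 1 rose and 1 fell (median -0.21). The Kupffer cell markers, of liver-resident macrophages, summed to 361 to 516, 285 to 584 and 206 to 354 CPM in these groups. These sums lean on C6, with means of 357, 164 and 29.7 CPM, while Cd5l had 28.7, 142 and 150 CPM. Of the 8 Kupffer markers, 3 rose and 3 fell in NASH vehicle against control. Only C6 was called in CDDO-Me against NASH vehicle, where it fell. Against control, 2 rose and 3 fell with CDDO-Me. The part of either cell type in the Slc40a1 result was not tested.

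Tfrc (chr16:32608920-32632794, plus strand), the receptor most cells use to take up transferrin iron, stood at 41.1, 48.0, 25.9 and 20.6 CPM in control and at 19.02, 18.2, 16.4 and 16.8 CPM in NASH vehicle libraries. Treated libraries were at 27.1, 30.7, 36.0 and 30.02 CPM. The NASH vehicle libraries were the lowest of all, and the CDDO-Me libraries lay inside the wide control range. Tfrc fell by 0.95 ± 0.22 (log2) in NASH vehicle against control (adjusted p = 0.0022, edgeR), a call lost with library totals (-0.31) and with TPM (-0.07). It rose by 0.81 ± 0.21 in CDDO-Me against NASH vehicle (adjusted p = 0.022, edgeR). That call was lost without any 1 of NASH vehicle 2, 3 or 4 or CDDO-Me 2 or 3, with adjusted p between 0.052 and 0.073 (edgeR).

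Tfr2 (chr5:137569840-137587481, plus strand), a hepatocyte sensor of transferrin-bound iron that acts on hepcidin, stood at 508, 644, 538 and 536 CPM in control and at 308, 190, 185 and 193 CPM in NASH vehicle libraries. In CDDO-Me libraries it stood at 186, 259, 236 and 157 CPM. On this scale every diseased liver was below every control liver, with or without the compound. On TPM, NASH vehicle 1 (195) was above control 1 (189). Tfr2 fell by 1.35 ± 0.19 (log2) in NASH vehicle (adjusted p = 4.6e-05, edgeR) and by 1.41 ± 0.19 in CDDO-Me (adjusted p = 4.9e-05, edgeR) against control. CDDO-Me against NASH vehicle gave -0.06 ± 0.19 (adjusted p = 0.86, edgeR, interval -0.43 to 0.31). Of the 10 hepatocyte markers, 9 fell on the TMM scale in NASH vehicle against control, with a list median of -1.18 (log2). In CDDO-Me against NASH vehicle, 2 fell. On mean TPM, Apob (472 to 650), Ahsg (5505 to 7808) and Hnf4a (244 to 246) were higher in NASH vehicle than in control. The other hepatocyte markers were lower on mean TPM. The part of hepatocytes in the results for Hamp and Tfr2 was not tested.

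Trf (chr9:103204001-103230444, minus strand), the plasma iron carrier secreted by hepatocytes, stood at 18446, 20346, 16512 and 16978 CPM in control, 15244, 14699, 12010 and 14593 in NASH vehicle and 10674, 13974, 13523 and 9355 in CDDO-Me libraries. On the TMM scale both diseased groups were below the control group without overlap, and overlapped each other. On TPM, all NASH vehicle libraries (12898 to 13805) were above all control libraries (9007 to 10170), and CDDO-Me libraries overlapped control. Trf fell by 0.60 ± 0.18 (log2) in CDDO-Me against control (adjusted p = 0.012, edgeR), a call lost with library totals (-0.15). NASH vehicle against control gave -0.35 ± 0.18 (adjusted p = 0.099, edgeR), a sign that turned with library totals (0.27) and with TPM (0.48). Of its reads, 20.4% were unique, and an annotated gene on the same locus, Gm20425, held 76576 reads.

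Slc11a2 (chr15:100387898-100425072, minus strand), the importer DMT1 that moves ferrous iron across membranes, changed little on the TMM scale. It stood at 72.0, 67.8, 50.7 and 55.6 CPM in control, 59.9, 60.8, 63.1 and 59.4 in NASH vehicle and 44.6, 57.3, 51.3 and 47.1 in CDDO-Me libraries. It fell by 0.30 ± 0.11 (log2) in CDDO-Me against control (adjusted p = 0.040, edgeR). The groups overlapped, DESeq2 did not make the call (adjusted p = 0.052), and it was lost without any 1 of 7 libraries: control 1 or 2, NASH vehicle 2 or 4, or CDDO-Me 1, 3 or 4 (adjusted p = 0.051 to 0.13, edgeR). Also, with library totals the sign turned (0.17). CDDO-Me against NASH vehicle gave -0.28 ± 0.11 (adjusted p = 0.10, edgeR). NASH vehicle against control gave -0.02 ± 0.11 (adjusted p = 0.91, edgeR), or 0.62 with library totals, which passed the threshold. On TPM, all NASH vehicle libraries (24.9 to 31.7) were above all control libraries (14.3 to 17.5).

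Both ferritin subunits, which together form the shell that stores iron, were highest with CDDO-Me. Fth1 (chr19:9982703-9985092, plus strand), the heavy subunit that oxidises iron, stood at 1663, 2012, 1742 and 1685 CPM in control and at 1841, 2618, 2250 and 2508 CPM in NASH vehicle libraries. In CDDO-Me libraries it stood at 3411, 4461, 4410 and 3640 CPM. All CDDO-Me libraries were above all others, and NASH vehicle 1 lay inside the control range. Fth1 rose by 0.79 ± 0.15 (log2) against NASH vehicle (adjusted p = 0.0039, edgeR) and by 1.16 ± 0.16 against control (adjusted p = 4.2e-05, edgeR). The rise in NASH vehicle against control was 0.38 ± 0.15 (adjusted p = 0.048, edgeR), and it was no longer called when any 1 of 9 libraries was left out (all but control 2, NASH vehicle 1 and CDDO-Me 4), with adjusted p between 0.051 and 0.13 (edgeR).

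Ftl1 (chr7:45457944-45459884, minus strand), the light subunit, stood at 3823, 4657, 3392 and 4221 CPM in control and at 4133, 4856, 4313 and 4562 CPM in NASH vehicle libraries. In CDDO-Me libraries it stood at 7338, 10166, 10239 and 7663 CPM, again above all others. It rose by 0.99 ± 0.17 (log2) against NASH vehicle (adjusted p = 0.0014, edgeR) and by 1.14 ± 0.17 against control (adjusted p = 9.0e-05, edgeR). NASH vehicle against control gave 0.15 ± 0.16 (adjusted p = 0.45, edgeR), and library totals gave 0.79, which passed the threshold. Ftl1 has near-identical copies elsewhere in the genome, and 31.4% of its reads were unique. With unique reads in place of all reads, every Ftl1 comparison kept its direction and its side of the threshold.

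The subunits kept a similar ratio. Ftl1 TPM divided by Fth1 TPM was 1.27 to 1.63 in control, 1.19 to 1.47 in NASH vehicle and 1.37 to 1.51 in CDDO-Me livers. Together the subunits took 0.79% to 0.96% of all TPM in control, 1.49% to 2.07% in NASH vehicle and 2.74% to 3.12% in CDDO-Me livers. These shares did not overlap between any groups, and being shares of all TPM they follow the library totals rather than the TMM scale.

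Hmox1 moved the other way from ferritin and ferroportin in the treated livers. Hmox1 (chr8:75093621-75100589, plus strand), the inducible heme oxygenase, stood at 8.83, 10.1, 9.81 and 10.6 CPM in control and at 64.9, 96.6, 108 and 97.3 CPM in NASH vehicle libraries. Livers given CDDO-Me had 37.7, 53.1, 40.6 and 60.4 CPM. The groups did not overlap: NASH vehicle was highest, CDDO-Me lay between, and control was lowest. Hmox1 rose by 3.23 ± 0.18 (log2) in NASH vehicle against control (adjusted p = 3.7e-08, edgeR), a 9.35-fold difference. It fell by 0.94 ± 0.17 in CDDO-Me against NASH vehicle (adjusted p = 0.0022, edgeR) and remained 2.29 ± 0.18 above control (adjusted p = 6.6e-07, edgeR). These calls and directions held in every alternative analysis run.

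The macrophage markers moved in the same directions as Hmox1. All 12 rose in NASH vehicle against control with a list median of 3.52 (log2), and 9 of 12 fell in CDDO-Me against NASH vehicle with a median of -1.12. Their part in the Hmox1 result was not tested. The constitutive heme oxygenase Hmox2 gave -0.06 ± 0.07 in NASH vehicle against control and -0.14 ± 0.07 in CDDO-Me against NASH vehicle (adjusted p = 0.47 and 0.18, edgeR). By the smallest root mean square difference of centred log2 CPM over the 12 libraries, among 10330 candidate genes, the genes most like Hmox1 in pattern were Phlda3 (0.17), Abcg1 (0.20), Hcls1 (0.20), Gngt2 (0.21) and Cd300ld (0.22). The genes most like Hamp were C9, Aadac and Dpyd (0.36 each) and Plxna2 and Hao1 (0.37 each).

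On the TPM scale, which allows levels of different genes to be compared, members spanned several orders of magnitude. In control livers the order of mean TPM was Trf (9493 ± 515, SD, n = 4), Ftl1 (5231 ± 503), Fth1 (3556 ± 333), Hamp (2164 ± 655), Tfr2 (219 ± 23.9), Hamp2 (70.2 ± 14.2), Slc40a1 (21.4 ± 2.89), Slc11a2 (15.9 ± 1.53), Hmox1 (9.53 ± 1.08) and Tfrc (9.36 ± 3.08). Neighbours in that order did not overlap, except Hmox1 and Tfrc. In NASH vehicle livers Hmox1 (163 ± 45.6) ranked 5 of the 10, its range overlapping that of Tfr2 (151 ± 30.9), and Hamp2 (10.9 to 15.02) ranked 9. Ftl1 (10434 ± 1127) and Fth1 (8263 ± 1493) overlapped there as well. With CDDO-Me the ferritin subunits passed Trf (9482 ± 658): Ftl1 (17523 ± 1124) and Fth1 (12146 ± 732) ranked 8 and 10 among all genes of the liver. Of the reads of Trf and Ftl1, 20.4% and 31.4% were unique, against 100% for Fth1. The places of Trf and Ftl1 may therefore depend on how shared reads were assigned. That dependence was not tested with TPM. With CDDO-Me the ranges of Hmox1 (72.2 ± 22.7) and Hamp2 (69.2 ± 51.2) overlapped, as did those of Hamp2 and Slc40a1 (62.8 ± 6.10).

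**Figure D4:**
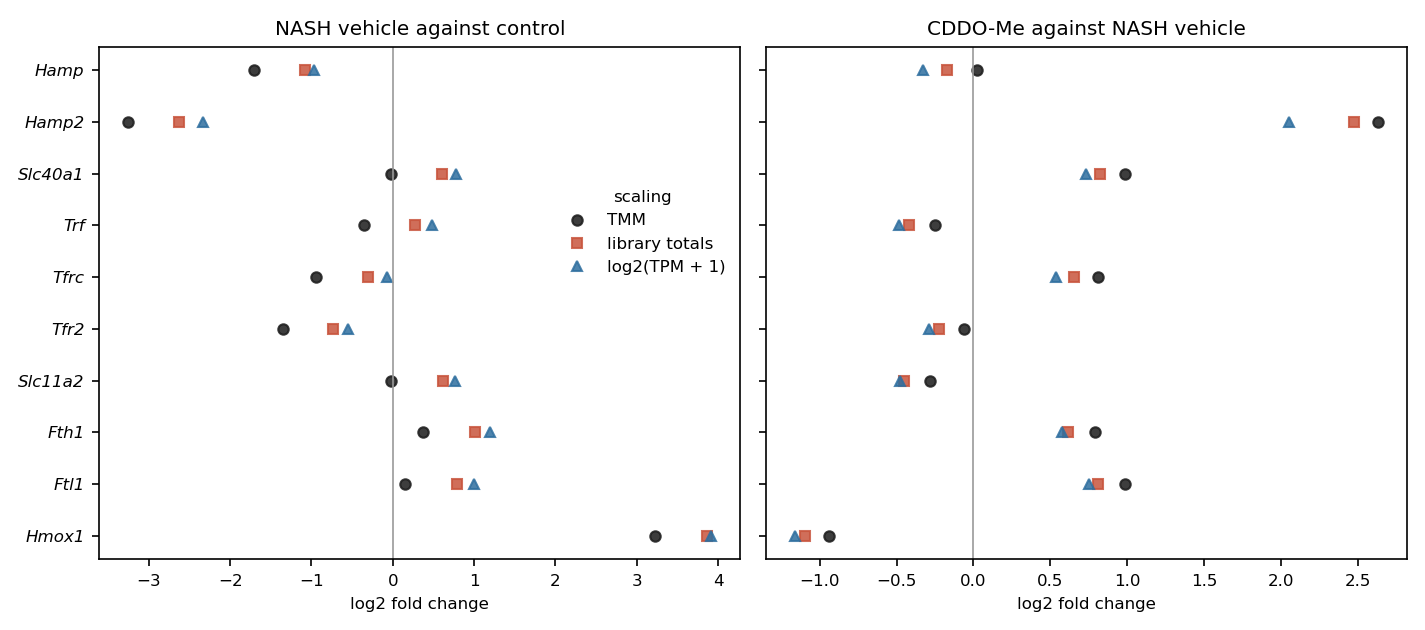
Log2 fold changes of the 10 genes with TMM scaling (circles), library totals (squares) and log2(TPM + 1) (triangles). NASH vehicle against control shifted upwards without TMM, so that Slc40a1, Trf and Slc11a2 turned from -0.03, -0.35 and -0.02 to 0.60, 0.27 and 0.62 with library totals, while Hamp, Hamp2, Tfr2 and Hmox1 kept their direction.

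Beyond the members, 59 other genes of iron and heme handling were listed and 56 had enough reads to be tested. In NASH vehicle against control 17 rose, 12 fell and 27 were not called, with a list median of -0.04 (log2) beside -0.01 for all genes. In CDDO-Me against NASH vehicle 12 rose, 10 fell and 34 were not called, with medians of -0.02 and -0.01. In CDDO-Me against control 17 rose, 15 fell and 24 were not called, with medians of 0.06 and 0.03. Of all genes tested, 59.7%, 16.6% and 49.8% were called in these comparisons.

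Of 22 tested hepcidin regulators, 5 rose and 3 fell in NASH vehicle against control, and 4 rose and 2 fell in CDDO-Me against NASH vehicle. The background was 59.7% and 16.6% of all genes called. Bmp6, the endothelial ligand that drives hepcidin with iron load, stood at 6.35 to 8.09 CPM in NASH vehicle and at 13.9 to 16.97 CPM in CDDO-Me livers, a rise of 1.14 ± 0.12 (log2, adjusted p = 4.4e-05, edgeR). Bmp2, the ligand behind basal hepcidin, fell by 1.00 ± 0.19 in NASH vehicle against control and rose by 1.13 ± 0.19 with CDDO-Me (adjusted p = 0.00049 and 0.0015, edgeR). The former call was lost with library totals (-0.39) and with TPM (-0.15). Both ligands rose with CDDO-Me while Hamp gave 0.02 in the same comparison, and 6 of 8 endothelial markers rose there too; the part of these cells was not tested. Bmp6 overlaps Txndc5 on the other strand, which with another overlapping gene held 72559 reads, so reads of these genes may not be fully told apart. The co-receptor hemojuvelin (listed as Hfe2) and Hfe rose by 0.42 ± 0.12 and 0.44 ± 0.11 (adjusted p = 0.027 and 0.018, edgeR). The Hfe2 call was lost without any 1 of NASH vehicle 2, 3 or 4 or CDDO-Me 1, 2 or 3 (adjusted p = 0.053 to 0.095, edgeR) and with library totals (0.27). The Hfe call was lost without NASH vehicle 3, CDDO-Me 2 or CDDO-Me 3 (adjusted p = 0.062 to 0.068, edgeR) and with TPM (0.21). Tmprss6, the protease that cuts hemojuvelin and restrains hepcidin, fell by 1.02 ± 0.15 in NASH vehicle against control (adjusted p = 6.4e-05, edgeR), a call lost with TPM (-0.21).

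The SMAD targets Id1 and Smad7, usual readouts of BMP signals, rose in NASH vehicle against control by 2.18 ± 0.24 and 1.26 ± 0.17 (adjusted p = 7.3e-06 and 2.9e-05, edgeR), in the comparison in which Hamp fell. Id1 was 2.77 to 5.01 CPM in control and 14.7 to 28.8 CPM in NASH vehicle livers. In that comparison 5 of 6 stellate cell and 4 of 6 cholangiocyte markers rose, beside 59.7% of all genes called. There 9 of 10 hepatocyte and 5 of 8 endothelial markers fell. The part of these cells in the Id1 and Smad7 results was not tested. With CDDO-Me against NASH vehicle neither Id1 nor Smad7 was called (0.09 ± 0.22 and -0.14 ± 0.16, adjusted p = 0.82 and 0.63, edgeR). Acvr2a, a BMP type II receptor, fell by 0.85 ± 0.10 and Gdf15, a stress-induced TGF-beta family member, rose by 2.44 ± 0.26 in NASH vehicle against control (adjusted p = 1.1e-05 and 6.9e-06, edgeR). The Acvr2a call was lost with library totals (-0.22) and with TPM (-0.07). Stat3 fell by 0.42 ± 0.11 and Fgl1 by 0.95 ± 0.27 in CDDO-Me against NASH vehicle (adjusted p = 0.021 and 0.033, edgeR). The Stat3 call was lost without CDDO-Me 3 (adjusted p = 0.068, edgeR), and the Fgl1 call without NASH vehicle 2 or any 1 CDDO-Me library (adjusted p = 0.052 to 0.082, edgeR). Fgl1 stood at 366 CPM in NASH vehicle 1 and at 138 to 187 CPM in the other 3 libraries of that group. Erfe and Il6 had too few reads to be tested.

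Of 17 tested genes of iron entry, oxidation and transfer, 4 rose and 5 fell in NASH vehicle against control, and 4 rose and 3 fell in CDDO-Me against NASH vehicle. Among all genes, 59.7% and 16.6% were called. Lcn2, the siderophore-binding protein lipocalin 2, stood at 1.00 to 2.18 CPM in control, 276 to 425 in NASH vehicle and 113 to 161 in CDDO-Me livers. It rose by 7.72 ± 0.25 (log2) and then differed by -1.25 ± 0.18 (adjusted p = 2.7e-10 and 0.00048, edgeR). Steap4, a metalloreductase, rose by 1.70 ± 0.17 in NASH vehicle against control and fell by 1.36 ± 0.17 with CDDO-Me (adjusted p = 2.2e-06 and 0.00014, edgeR). The mitochondrial iron importer Slc25a37 fell by 0.76 ± 0.10 and rose by 0.82 ± 0.10 in the same comparisons (adjusted p = 1.8e-05 and 9.6e-05, edgeR), the former call being lost with library totals (-0.12) and turning to 0.02 on TPM. The ferroxidase Heph rose in both, by 2.00 ± 0.26 and 1.07 ± 0.24 (adjusted p = 2.4e-05 and 0.0090, edgeR), from 1.04 to 2.15 CPM in control to 10.2 to 17.04 CPM in CDDO-Me livers. The plasma ferroxidase Cp rose by 0.31 ± 0.11 in NASH vehicle against control and fell by 0.41 ± 0.11 with CDDO-Me (adjusted p = 0.023 and 0.020, edgeR). The former call was lost without control 2, control 3, NASH vehicle 1 or NASH vehicle 4 (adjusted p = 0.050 to 0.065, edgeR), and the latter without NASH vehicle 4, CDDO-Me 1 or CDDO-Me 3 (adjusted p = 0.060 to 0.063, edgeR). The importer of non-transferrin iron Slc39a14 gave -0.35 ± 0.18 and -0.23 ± 0.18 (adjusted p = 0.12 and 0.42, edgeR), and its relative Slc39a8 fell by 1.03 ± 0.13 and rose by 0.70 ± 0.13 (adjusted p = 1.6e-05 and 0.0024, edgeR), the former call being lost with TPM (-0.16).

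Among the 3 genes of the iron regulatory proteins, Aco1 and Ireb2, which encode the proteins that bind the hairpins shown above, fell by 1.17 ± 0.12 and 0.66 ± 0.10 (log2) in NASH vehicle against control (adjusted p = 3.9e-06 and 6.1e-05, edgeR). The Ireb2 call was lost with library totals (-0.03), and on TPM its sign turned (0.15). Fbxl5, which marks IRP2 for degradation, rose by 0.35 ± 0.09 (adjusted p = 0.0034, edgeR). With CDDO-Me against NASH vehicle Ireb2 rose by 0.35 ± 0.10 (adjusted p = 0.026, edgeR) with overlapping groups. That call was lost without any 1 of NASH vehicle 2, 3 or 4 or CDDO-Me 1, 2 or 3 (adjusted p = 0.054 to 0.091, edgeR), and with library totals (0.19). Aco1 and Fbxl5 gave 0.35 ± 0.12 and 0.06 ± 0.09 (adjusted p = 0.071 and 0.70, edgeR). Ncoa4, which delivers ferritin for breakdown, and the iron chaperone Pcbp1 fell by 0.42 ± 0.07 and 0.58 ± 0.09 in NASH vehicle against control (adjusted p = 0.00016 and 8.6e-05, edgeR). Both turned positive without TMM (0.21 and 0.05 with library totals).

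Of 14 genes of heme and hemoglobin clearance, 7 rose and 2 fell in NASH vehicle against control, and 3 rose and 5 fell in CDDO-Me against NASH vehicle. Calls over all genes were 59.7% and 16.6%. The 3 that rose with CDDO-Me were the biliverdin reductase Blvrb, the heme transporter Slc48a1 and the exporter Abcg2, which carries heme and porphyrins among other substrates. Blvrb stood at 110 to 187 CPM in control, 109 to 143 in NASH vehicle and 397 to 554 in CDDO-Me livers, a rise of 1.90 ± 0.17 (log2) against NASH vehicle (adjusted p = 1.3e-05, edgeR). Slc48a1 went from 76.9 to 93.2 CPM in NASH vehicle to 200 to 299 CPM in CDDO-Me livers, a rise of 1.54 ± 0.13 (adjusted p = 8.0e-06, edgeR). Slc48a1 overlaps Hdac7, which held 6727 reads. Abcg2 fell by 0.67 ± 0.14 in NASH vehicle against control and rose by 1.11 ± 0.14 with CDDO-Me (adjusted p = 0.0011 and 0.00018, edgeR), the former call being lost with library totals (-0.04) and turning to 0.14 on TPM. The enzyme that opens heme, Hmox1, fell in the comparison in which Blvrb rose and the other biliverdin reductase, Blvra, fell.

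The 5 that fell with CDDO-Me were the plasma heme binder Hpx (-0.79 ± 0.20), its receptor Lrp1 (-0.48 ± 0.13), the heme exporter Flvcr1 (-0.60 ± 0.18), the biliverdin reductase Blvra (-0.58 ± 0.15) and Nfe2l2 (-0.40 ± 0.11), the gene of NRF2 itself, with adjusted p between 0.016 and 0.035 (edgeR). Of these calls, that of Hpx held with each library left out. That of Flvcr1 was lost without any 1 of NASH vehicle 2, 3 or 4 or CDDO-Me 1, 2 or 3 (adjusted p = 0.085 to 0.11, edgeR), and that of Nfe2l2 without NASH vehicle 2 or 3 or CDDO-Me 1, 2 or 3 (0.060 to 0.095). That of Lrp1 was lost without NASH vehicle 3 or 4 or CDDO-Me 1 or 3 (adjusted p = 0.054 to 0.078, edgeR), and that of Blvra without NASH vehicle 4 or CDDO-Me 3 (0.063 and 0.052). Hp, the hemoglobin binder haptoglobin, and Nfe2l2 rose in NASH vehicle against control by 0.61 ± 0.17 and 0.69 ± 0.11 (adjusted p = 0.0061 and 0.00015, edgeR). Bach1, a heme-sensing repressor of Hmox1, gave -0.09 ± 0.13 and 0.36 ± 0.13 in these comparisons (adjusted p = 0.55 and 0.069, edgeR). Cd163, the hemoglobin receptor of resident macrophages, stood at 4.61 to 8.88 CPM in control, 0.59 to 2.12 in NASH vehicle and 0.58 to 3.24 in CDDO-Me livers. It fell by 2.64 ± 0.56 in NASH vehicle against control (adjusted p = 0.0013, edgeR), in livers where all 12 macrophage markers rose. The erythroid markers, of red blood cells and their precursors, summed to 270 to 455 CPM in control, 103 to 335 in NASH vehicle and 142 to 250 in CDDO-Me livers.

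**Figure D5:**
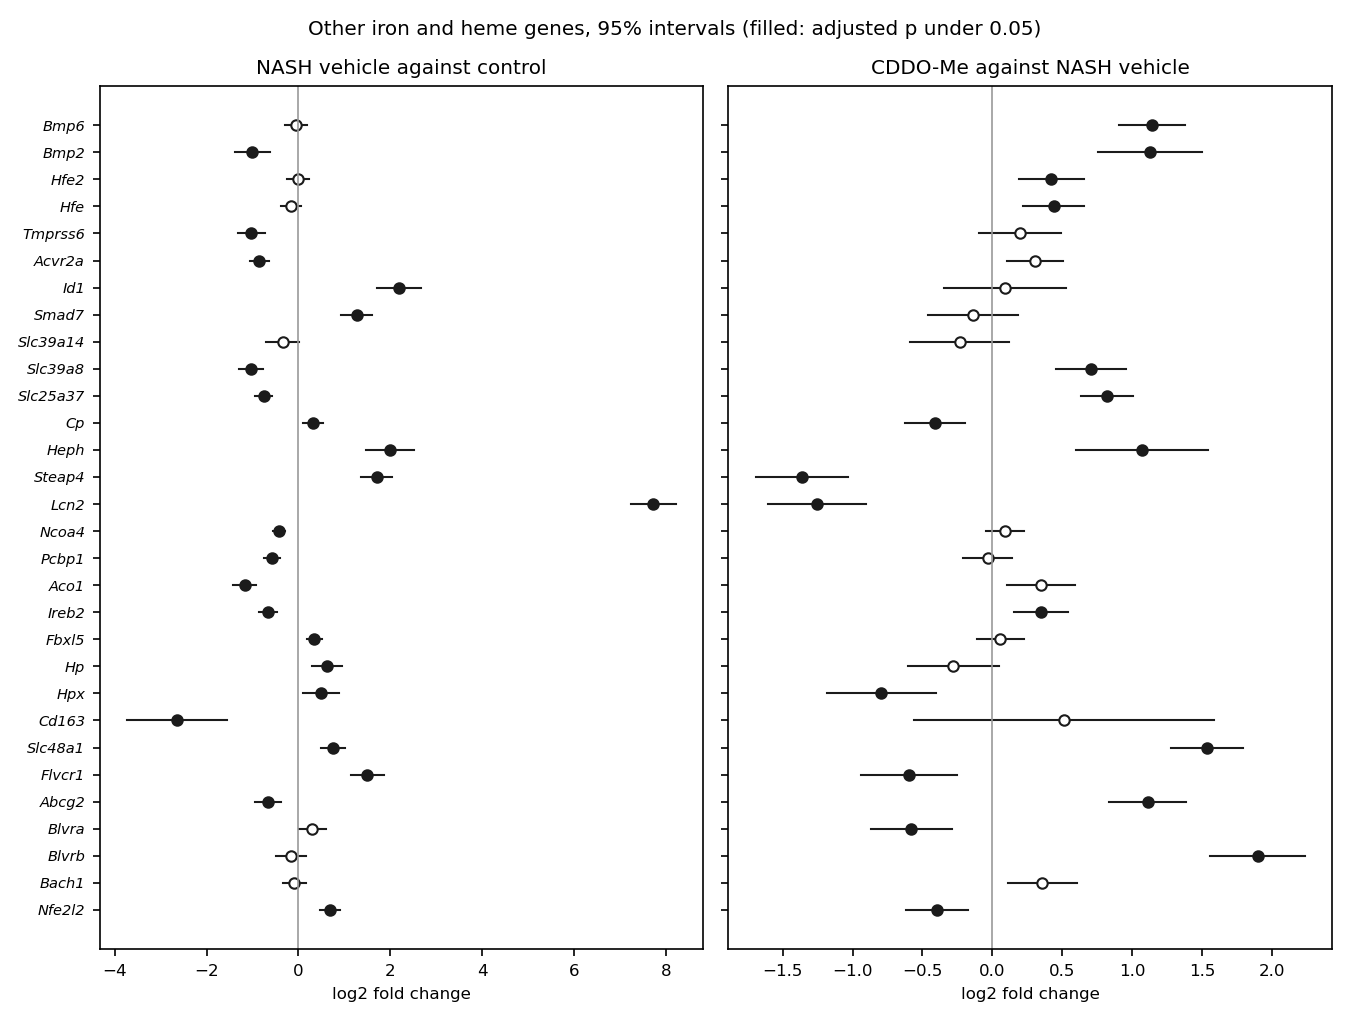
Log2 fold changes of 30 other iron and heme genes in NASH vehicle against control (left) and CDDO-Me against NASH vehicle (right), with nominal 95% intervals. Filled points have an adjusted p under 0.05. Lcn2 is the rightmost point on the left (7.72), and Blvrb (1.90) and Slc48a1 (1.54) lie furthest to the right on the right. With library totals, Bmp6, Hfe2, Hfe, Ncoa4, Blvrb, Bach1 and Pcbp1 turn from negative to positive on the left.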

How the data were processed

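Liver RNA was made into poly(A) libraries and sequenced as paired reads, per the labels' protocols. The deposited tables hold whole-number counts of reads per gene, namely total, unique, exon and intron reads, and TPM, per the file headers; for each gene the authors also deposited RPKM, which was not used, and the fraction of its reads that is unique or intronic. The build is GRCm38, per the submitters' processing notes. Aligner, counting tool and strand setting were not given in the sources used here. Hence reads of overlapping genes may be shared.

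Total gene reads of all 12 libraries were fitted together with edgeR 4.0.16 in R 4.3.3 (filterByExpr with a minimum of 10 reads, TMM, robust quasi-likelihood, 2-sided test, Benjamini-Hochberg adjustment over 16456 genes, threshold 0.05). The SE was derived from the F statistic as |log2 fold change|/√F, and intervals are 1.96 SE either side. Alternatives were other scalings, DESeq2 1.42.0, limma 3.58.1 on log2(TPM + 1), other filters, unique or exon reads, 8 libraries per fit and each library left out. The labels number the replicates but state no batch and no link between animals, so p-values measure the spread between these samples. The samples of a group differed by more than counting noise, so none was counted as a repeat of another.

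The 10 members, the lists of other iron and heme genes and the markers were chosen with earlier results of these data known. Named genes are all members, a fixed set from the lists, and in each list and comparison the 3 with the lowest p among those called. Hmox2, Stat3, Fgl1 and Lrp1 fall outside that rule and were chosen after their values were seen. Likeness of pattern used 5 genes per target. Counting error alone is small at 28161057 to 33852338 reads per library, except for Hamp2 and other genes of few reads.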

Additional observations from a re-analysis of the deposited data

Results flagged for a closer look

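In 8 of 135 groups of 4 libraries looked at, 1 library lay so far from the other 3 that its gap exceeded the 95% critical value of Dixon's test. Chance would flag about 5% of independent groups. These groups reuse the same 12 libraries and are not independent, so the 5% cannot say whether chance gave the flags. Of these, 5 concerned NASH vehicle 1: Hamp at 215.2 CPM against 139 to 145 in the other 3, Tfr2 at 307.8 CPM against 185 to 193, Hfe2 at 113.6 CPM against 78.0 to 83.2, Cd163 at 2.117 CPM against 0.59 to 0.74, and Stat3 at 127.8 CPM against 91.0 to 96.2. This library also had the lowest macrophage sum (1968 CPM) and the highest hepatocyte sum (66392 CPM) of its group. The others were Tmprss6 in control 2 at 806.8 CPM against 653 to 677, Lcn2 in NASH vehicle 4 at 424.5 CPM against 276 to 300, and Flvcr1 in CDDO-Me 4 at 9.778 CPM against 6.14 to 6.71.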

How the results depend on the processing

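Scaling moved the split of higher and lower calls. The TPM values were tested with limma, so there the test changed with the scale. NASH vehicle against control gave 4874 genes higher and 4945 lower with TMM, 9908 and 1326 with library totals, and 10905 and 873 with limma on log2(TPM + 1). CDDO-Me against NASH vehicle gave 1545 and 1191, then 926 and 1589, then 779 and 2607. CDDO-Me against control gave 4317 and 3881, then 8678 and 1125, then 8845 and 812. Called values turned sign in NASH vehicle against control and in CDDO-Me against control, and in none of the alternatives for CDDO-Me against NASH vehicle; signs of values called under neither setting are not counted. With library totals, NASH vehicle against control turned to 0.60 for Slc40a1, 0.27 for Trf, 0.62 for Slc11a2, 0.58 for Bmp6, 0.61 for Hfe2, 0.47 for Hfe, 0.21 for Ncoa4, 0.47 for Blvrb, 0.55 for Bach1, 0.047 for Pcbp1 and 0.57 for Hmox2. CDDO-Me against control turned to 0.17 for Slc11a2, 0.37 for Cp, 0.15 for Ncoa4, 0.15 for Ireb2, 0.13 for Slc39a8, 0.26 for Hmox2, 0.12 for Stat3 and 0.32 for Lrp1. With log2(TPM + 1), whether or not genes under a TPM of 1 were left out, the same comparison of NASH vehicle with control turned to 0.78 for Slc40a1, 0.48 for Trf, 0.76 for Slc11a2, 0.60 for Bmp6, 0.78 for Hfe2, 0.64 for Hfe, 0.41 for Slc39a14, 0.40 for Ncoa4, 0.15 for Ireb2, 0.63 for Blvrb, 0.70 for Bach1, 0.020 for Slc25a37, 0.26 for Pcbp1, 0.14 for Abcg2, 0.71 for Hmox2 and 0.67 for Fgl1. CDDO-Me against control turned to 0.46 for Tfrc, 0.28 for Slc11a2, 0.0014 for Slc39a14, 0.49 for Cp, 0.27 for Ncoa4, 0.28 for Ireb2, 0.29 for Hpx, 0.0023 for Acvr2a, 0.26 for Slc39a8, 0.00025 for Pcbp1, 0.34 for Hmox2, 0.22 for Stat3 and 0.44 for Lrp1. A pseudocount of 0.1 gave, in the former comparison, 0.81 for Slc40a1, 0.48 for Trf, 0.80 for Slc11a2, 0.73 for Bmp6, 0.79 for Hfe2, 0.66 for Hfe, 0.43 for Slc39a14, 0.42 for Ncoa4, 0.16 for Ireb2, 0.63 for Blvrb, 0.75 for Bach1, 0.020 for Slc25a37, 0.26 for Pcbp1, 0.14 for Abcg2, 0.72 for Hmox2 and 0.68 for Fgl1. In the latter it gave 0.51 for Tfrc, 0.30 for Slc11a2, 0.00099 for Slc39a14, 0.49 for Cp, 0.28 for Ncoa4, 0.29 for Ireb2, 0.29 for Hpx, 0.0027 for Acvr2a, 0.28 for Slc39a8, 0.00026 for Pcbp1, 0.34 for Hmox2, 0.23 for Stat3 and 0.44 for Lrp1. The other iron and heme genes called in NASH vehicle against control numbered 29 with TMM, 44 with library totals, 46 with either pseudocount on TPM and 45 with the TPM minimum. Members called in that comparison numbered 6 with TMM and 9 with library totals or any TPM setting. In CDDO-Me against NASH vehicle they numbered 6 with TMM and 8 with library totals, log2(TPM + 1) or the TPM minimum. The pseudocount of 0.1 gave 7 there. In CDDO-Me against control they numbered 8 with TMM or any TPM setting and 6 with library totals. The cause of these shifts was not tested.

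With each library left out in turn, and with control 3 and CDDO-Me 4 left out together, members called numbered 5 to 6, 5 to 6 and 7 to 8 in the 3 comparisons. All genes called numbered 9010 to 10342 in NASH vehicle against control, 1564 to 4215 in CDDO-Me against NASH vehicle (2736 with all libraries) and 7122 to 8585 in CDDO-Me against control. In CDDO-Me against NASH vehicle the count was 4215 without control 3 and CDDO-Me 4 together, and 1699, 1569, 1595 and 1564 without NASH vehicle 3, NASH vehicle 4, CDDO-Me 2 and CDDO-Me 3. The other iron and heme genes called there numbered 11 to 23 (22 with all libraries), with 11 without CDDO-Me 3. Of 390 values of members with libraries left out, 367 kept their direction and their side of the threshold. The replicate numbers showed no pairing of the samples by this measure. Same-numbered libraries correlated at -0.22 to 0.19, above 0.1 in 2 of 12 pairs, and 0 of 12 libraries correlated best with their own number. With few libraries per group, such correlations cannot exclude a batch or a link between animals. With the replicate number as a block, 6, 6 and 7 members and 9472, 2177 and 7722 genes were called, and the member no longer called was Slc11a2 in CDDO-Me against control (adjusted p = 0.053, edgeR). Low depth limits Hamp2 (74 reads in its lowest library) and, beyond the members, Cd163 (16), Heph (23), Lcn2 (26) and Id1 (72).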
